A study of Mus musculus with 4 samples.

Results

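The clustered histone genes of the mouse are mostly replication-dependent, and they encode the linker histone H1 and the core histones H2A, H2B, H3 and H4. They were taken as the protein-coding genes of the count table whose GENCODE M21 symbol begins with Hist1h, Hist2h, Hist3h or Hist4h. This rule was met by 67 of the 55487 genes counted, and the 49 with 10 or more counts summed over the 4 libraries were kept. Of these 49 genes, 30 passed the low-count filter and were tested.

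The cells were group 2 innate lymphoid cells (ILC2s) of the mouse colon, tissue lymphocytes without antigen receptors that secrete type 2 cytokines. After sorting they were kept in culture with 4 cytokines (IL-33, IL-25, IL-7 and IL-2). In 2 libraries (FK866) the cells had received FK866, an inhibitor of the NAD salvage enzyme NAMPT, for 16 h, and the other 2 (Control) carry the treatment label Control. The sources used here do not give the strain, age and sex of the mice, the dose of FK866 or any vehicle, nor whether replicates are separate animals or cultures.

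Cells make most of their clustered histone mRNA in S phase, when new DNA must be packaged. These mRNAs are the exception among the mRNAs of animals in that they normally end without a poly(A) tail. Their 3′ end is cut just after a conserved stem-loop, which stem-loop binding protein (encoded by Slbp) binds. The cut also needs the U7 snRNP. Some histone genes can also be read past this site and polyadenylated, a form known from cells that have left the cell cycle. The cDNA of these libraries was primed on poly(A) tails, so the values below describe polyadenylated or internally primed histone RNA and not the whole histone mRNA pool. In bulk samples fewer cells that express a gene and less RNA per cell cannot be told apart.

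The stem-loop is shown because the annotated 3′ ends are described below by their distance from it. It was searched as a stem of 6 base pairs around a loop of 4 bases. Of the 67 genes 44 had an annotated transcript that held it, 21 to 58 nt after the stop codon. Of these, 22 were annotated to end within 100 nt of it and 22 to run 100 nt or more past it. Where a gene had several transcripts with a match, the one running furthest past it was taken. Of those without a match, 18 were annotated only to the coding part or to under 100 nt after the stop. A missing match can thus reflect the annotation. The form in Hist1h2bj and Hist1h3a was also the most common, with 26 genes, and the next lines give the forms of the members described below, read from GENCODE M21 transcripts 5′ to 3′ with the loop in capitals.
Hist1h2bj, Hist1h3a, Hist1h1c, Hist1h1d, Hist1h1e, Hist1h2ae, Hist1h2bg and Hist3h2a: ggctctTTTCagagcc
Hist1h4c and Hist1h4d: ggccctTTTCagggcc
Hist1h3e: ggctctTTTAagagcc
Hist1h4i: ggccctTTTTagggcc
The annotated transcript of Hist1h2bc holds none. That gene spans chr13:23684199-23692908 on the plus strand (GRCm38), and its coding sequence lies in exon 1, which ends 9 nt after the stop codon. An intron of 7554 nt separates it from an exon 2 of 733 nt that is all 3′ UTR. Only annotated transcripts were searched, so a stem-loop within this intron would have been missed.

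Library totals ran from 27617750 to 37841233 counts. FK866 replicate 2 stood apart with 22461 genes at 10 or more counts, against 17152 to 18667 in the other libraries. All 10 ILC2 markers were tested, of which Rora was called higher and Il13 and Icos lower with FK866, and their summed level was 3829 to 4474 CPM (CPM is a gene's count scaled to a common library size, after TMM scaling). Markers of other cells were lower in sum: 83.2 to 272 CPM for ILC3 markers (mostly Il22), 19.4 to 20.99 CPM for T cells and at most 1.07 CPM for mast cells. Some of these sums differed between the groups without overlap. Stroma (mostly Pecam1) was at 182 and 144 CPM in the Controls and 228 and 190 CPM with FK866. Epithelium, nearly all Epcam with Krt8 at 0 in every library, was at 42.3 and 54.5 CPM against 25.8 and 38.0 CPM. Macrophage markers were at 1.32 and 2.61 CPM against 5.08 and 4.21 CPM, and B cell markers at 0.220 and 0.583 CPM against 1.04 and 1.74 CPM. No marker of another cell type was called by edgeR, and their part in the histone values was not tested.

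The clustered histone genes had no common direction with FK866: 16 of the 30 tested had a log2 fold change above 0 and 14 below. Hist1h2bc, which encodes an H2B, rose 4.65-fold, and Hist1h2bj, another H2B gene, fell 3.18-fold. By edgeR's quasi-likelihood test 1 of 30 members was called higher (3.33%) and 1 lower (3.33%), against 5.31% and 7.89% of all 19194 genes tested, and the other 28 were not called. The members' share of calls, 6.67%, thus lay below the 13.2% of all genes. The median log2 fold change was 0.03 over the members and 0.03 over all genes. Libraries of the 2 groups did not overlap for 7 members that were higher with FK866 (23.3%, against 28.4% of all genes) and for 9 that were lower (30.0%, against 29.3%). Some weak members passed the low-count filter only through the group where they were higher, so their direction was tied to their being tested. Examples are Hist1h3d (0 and 10 counts in the Controls, 14 and 13 with FK866) and Hist1h3f (19 and 24 against 5 and 4). SEs of the members' log2 fold changes ran from 0.20 to 1.497, so changes of the weakly counted members were not resolved at this depth.

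**Figure D1:**
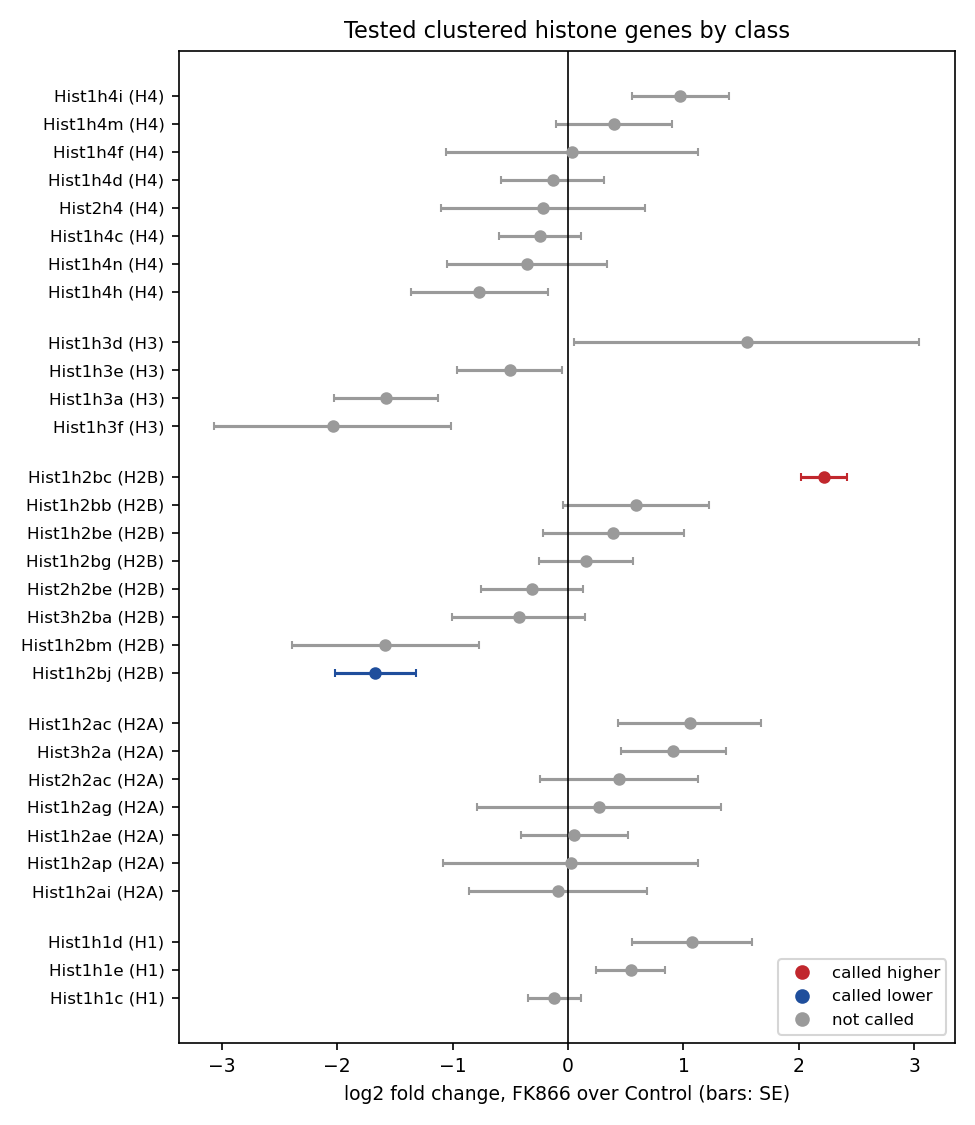
Log2 fold change of each of the 30 tested members (x axis, FK866 over Control, bars are SE) by histone class, from edgeR. Hist1h2bc lies at 2.22 and Hist1h2bj at -1.67, and the 28 genes in grey were not called.

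All 49 members together held 74.7 and 79.9 CPM in Control replicates 1 and 2, and 102.0 and 95.5 CPM in FK866 replicates 1 and 2. Their group means were 77.3 ± 3.64 and 98.8 ± 4.60 CPM (SD, n = 2), at most 0.0102% of a library. The higher sum lay in Hist1h2bc, chosen for this split after its values were seen, as were the genes left out of sums below: it supplied 9.91% and 8.49% of the members' counts in the Controls and 33.2% and 33.6% with FK866. Without it the sums were 67.3 and 73.1 CPM in the Controls and 68.2 and 63.4 CPM with FK866, and the groups overlapped.

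**Figure D2:**
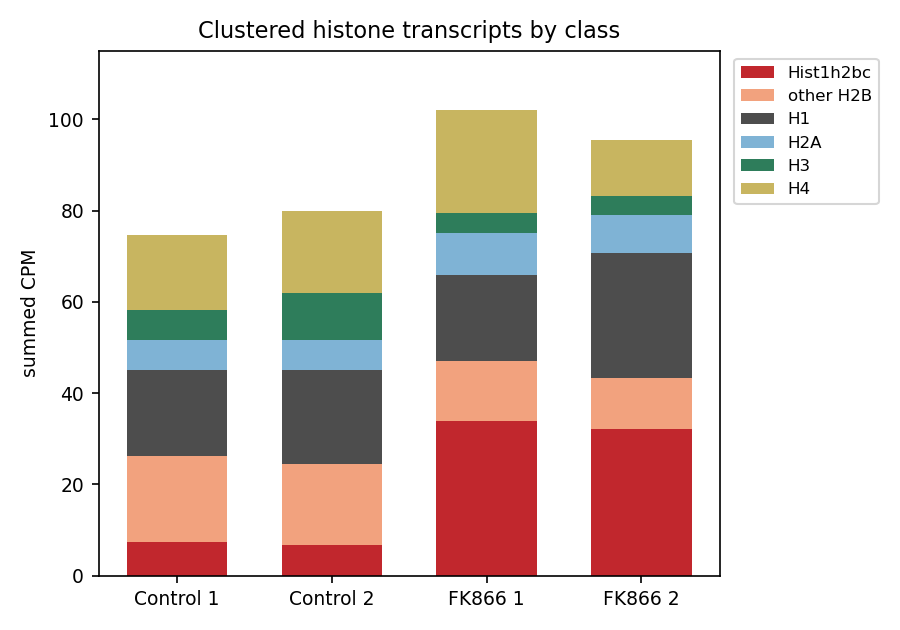
Summed CPM (y axis) of the kept members in each library, stacked by histone class, with Hist1h2bc drawn apart from the other H2B genes. Hist1h2bc is at 7.40 and 6.78 CPM in the Controls and 33.9 and 32.1 CPM with FK866, and the other H2B genes at 18.9 and 17.6 against 13.2 and 11.2 CPM.

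Linker histones bind the DNA between nucleosomes and help to compact chromatin. Of 5 H1 genes kept 3 were tested, and none was called. Hist1h1c was at 11.9 and 13.6 CPM in the Controls and 10.7 and 12.8 CPM with FK866, with a log2 fold change of -0.12 ± 0.23 (SE) and an adjusted p of 0.802 (edgeR). Its groups overlapped. Hist1h1e was at 5.39 and 4.79 CPM in the Controls and at 6.08 and 8.73 CPM with FK866 (log2 0.54 ± 0.30, edgeR adjusted p = 0.286), so that both FK866 libraries were the higher. However, 25.7% of its exon bases overlap other genes on the same strand, among them the member Hist1h2be, so reads there are not its alone. Hist1h1d was at 1.46 and 2.02 CPM in the Controls and 2.00 and 5.29 CPM with FK866 (log2 1.07 ± 0.52, edgeR adjusted p = 0.219). Its highest value stood in FK866 replicate 2 alone, the library with the most genes detected, and without FK866 replicate 1 its adjusted p was 0.042. With 1 library left out, here and below, 1 group is a single library that is assumed to vary like the other group, which alone gives the spread, so such p-values show how a call rests on a library and are no evidence for it.

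H2A and H2B pair as a dimer that flanks the core of the nucleosome, and many of their genes stand head to head and share the stretch between them. Of 11 H2A genes kept 7 were tested, and none was called. Hist3h2a was at 1.27 and 1.47 CPM in the Controls and 2.11 and 3.03 CPM with FK866 (log2 0.91 ± 0.45, edgeR adjusted p = 0.234). The FK866 values were the higher ones, but 33.0% of its exon bases overlap another gene, from which unstranded reads cannot be told apart. Hist1h2ae was at 2.06 and 1.56 CPM in the Controls and at 2.19 and 1.59 CPM with FK866, with overlapping groups.

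Among H2B genes, of which 14 were kept and 8 tested, Hist1h2bc (ENSMUSG00000018102) had 269 and 221 counts in the Controls and 914 and 1092 counts with FK866. As CPM it was at 7.40 and 6.78 in the Controls and 33.9 and 32.1 with FK866. Both FK866 libraries lay far above both Controls, and the libraries within a group stood close together. The means were 7.09 ± 0.442 and 33.0 ± 1.26 CPM (SD, n = 2), a log2 fold change of 2.22 ± 0.20 (SE) with an adjusted p of 0.000973 by edgeR's quasi-likelihood test. Reads over its distant exon 2 and over its coding exon were not separable, since the table holds 1 count per gene.

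Hist1h2bj (ENSMUSG00000069300, chr13:22043214-22043676, plus strand, GRCm38) went the other way. It had 319 and 229 counts in the Controls against 83 and 65 with FK866, which is 8.78 and 7.02 CPM against 3.08 and 1.91 CPM. Both FK866 libraries were below both Controls. The means were 7.90 ± 1.24 and 2.49 ± 0.825 CPM (SD, n = 2), with a log2 fold change of -1.67 ± 0.35 and an adjusted p of 0.0178 by the same edgeR test. Its annotated transcript is a single exon that ends 23 nt after the stem-loop. Because 59.4% of its 50-base stretches occur in another annotated transcript (30.6% for Hist1h2bc), its reads may be shared with near-identical copies, depending on how the authors counted such reads. Of the other H2B genes, Hist1h2bg was at 2.45 and 2.30 CPM in the Controls and 3.11 and 2.18 CPM with FK866, with overlapping groups.

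Levels can be compared between genes only per length of exon. On that scale Hist1h2bj was the highest member in the Controls, at 17.1 ± 2.68 CPM per kb, ahead of Hist1h1c (8.19 ± 0.771), Hist1h3a (8.07 ± 3.69) and Hist1h2bc (6.13 ± 0.382). With FK866 Hist1h2bc was the highest, at 28.5 ± 1.09 CPM per kb, followed by Hist1h1c (7.53 ± 0.971), Hist1h4m (6.36 ± 3.40), Hist1h4i (6.12 ± 2.88) and Hist1h2bj (5.39 ± 1.78, SD, n = 2). Neighbours in these orders from Hist1h1c to Hist1h2bc in the Controls, and from Hist1h1c to Hist1h2bj with FK866, differed by less than the larger of their SDs.

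**Figure D3:**
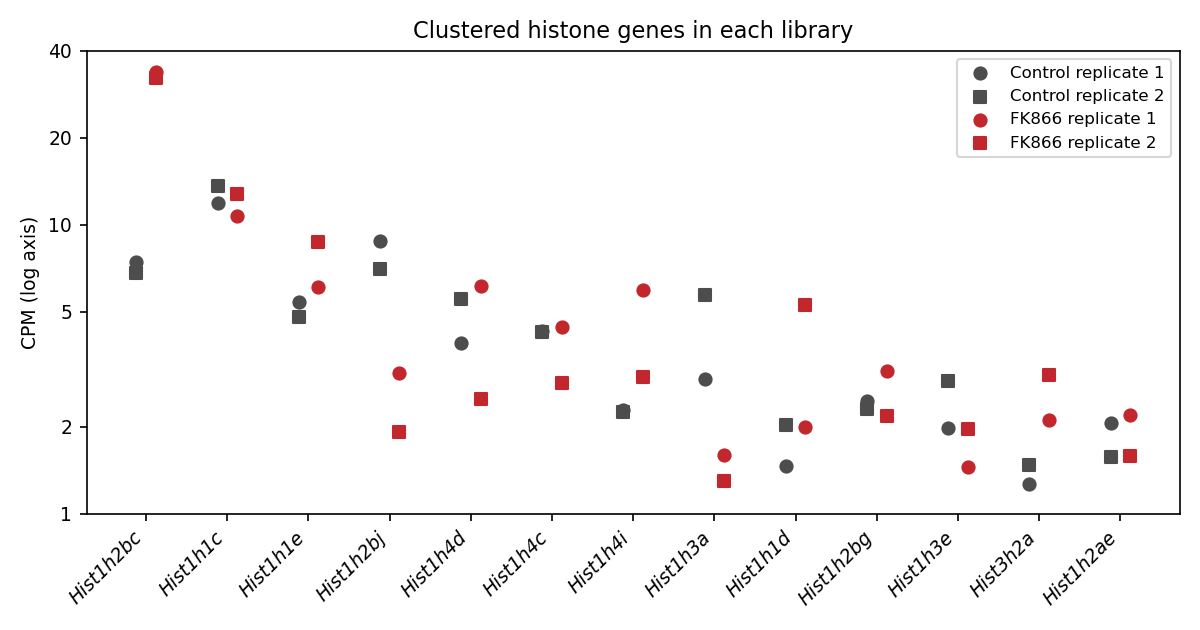
CPM in each library (log axis) of the 13 members given full values, ordered by mean CPM, with grey for Control and red for FK866. Only for Hist1h2bc do both red points stand above 30 CPM with both grey points under 8 CPM.

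H3 and H4 form the tetramer at the centre of the nucleosome. Of 8 H3 genes kept 4 were tested, and none was called. Hist1h3a (ENSMUSG00000069265, chr13:23761853-23762386, minus strand, GRCm38) was at 2.92 and 5.71 CPM in the Controls and 1.59 and 1.29 CPM with FK866. The FK866 values were the lower ones, and the Controls differed from each other by more than the FK866 libraries did. Its log2 fold change of -1.58 ± 0.45 had an adjusted p of 0.0526 by edgeR, just outside the threshold of 0.05. The call depends on the settings, and Hist1h3a was called lower under 7 of 12 others. One of these was seen both ways before it was settled: with library sizes taken before the low-count filter rather than after it, the adjusted p was 0.0488. It was also called with DESeq2 (0.0237), with no filter (0.0241), with the stricter filter (0.0454), with the replicate number as a block (0.00351), and with Control replicate 1 or FK866 replicate 1 left out. With Control replicate 2 left out the log2 fold change was -1.02, and it was not called.

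The H3 genes together summed to 6.47 and 10.3 CPM in the Controls and 4.34 and 4.12 CPM with FK866. Without Hist1h3a they summed to 3.55 and 4.60 CPM against 2.74 and 2.82 CPM, with both FK866 libraries still lower. Hist1h3e, next in abundance, was at 1.98 and 2.88 CPM in the Controls and 1.45 and 1.97 CPM with FK866 (log2 -0.50 ± 0.45, edgeR adjusted p = 0.53).

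Of 11 H4 genes kept 8 were tested, and none was called. All 13 H4 genes in the table encode 1 protein, from 12 distinct coding sequences. Hist1h4d was at 3.91 and 5.55 CPM in the Controls and at 6.16 and 2.50 CPM with FK866, so that the 2 FK866 libraries lay on either side of the Controls. Hist1h4c was at 4.29 and 4.26 CPM in the Controls and 4.41 and 2.82 CPM with FK866, also with overlap. Hist1h4i was at 2.28 and 2.24 CPM in the Controls and 5.93 and 2.97 CPM with FK866 (log2 0.97 ± 0.42, edgeR adjusted p = 0.173). Both FK866 libraries were higher, and without FK866 replicate 2, which leaves only the higher FK866 value against the spread of the Controls, its adjusted p was 0.0416.

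At the other end of the range 6 of the 67 genes were at 0 in every library: Hist1h2ah, Hist2h2aa1, Hist2h2aa2, Hist2h2bb, Hist2h3b and Hist2h3c1. Of these, 5 lie wholly inside the exons of another gene and have every 50-base stretch repeated elsewhere, so a count of 0 there says nothing of their expression. For the other, Hist1h2ah, 92.1% of these stretches are repeated and 35.6% of its exon bases overlap another gene, so its count of 0 does not limit its level either. The 19 kept members that were too weak to test summed to 3.30 and 4.54 CPM in the Controls and 2.45 and 2.94 CPM with FK866.

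The members were sorted by annotated 3′ end into 4 sets, with a limit of 100 nt chosen after the data were seen. Their sums are not corrected for exon length, so each is compared only between libraries and not with the other sets. The first set holds the genes annotated well past the stem-loop. These 18 genes summed to 41.9 and 46.2 CPM in the Controls and 50.5 and 48.7 CPM with FK866. The 17 genes annotated to end within 100 nt of the stem-loop summed to 20.8 and 22.2 CPM in the Controls and 13.8 and 10.7 CPM with FK866. Both FK866 libraries were lower there, but 6 of the 11 tested genes had a log2 fold change above 0, and without Hist1h2bj and Hist1h3a the sums were 9.08 and 9.51 CPM against 9.16 and 7.47 CPM and overlapped. For 4 genes, among them Hist1h2bc, the annotated transcript ran 100 nt or more past the stop without a stem-loop match. These summed to 9.99 and 9.29 CPM in the Controls and 35.4 and 34.4 CPM with FK866. The higher sum is Hist1h2bc alone: the other 3 summed to 2.59 and 2.52 CPM in the Controls and 1.52 and 2.29 CPM with FK866, with both FK866 values the lower. For the remaining 10 genes the GENCODE M21 transcript has under 100 nt after the stop and no stem-loop match. With that annotation reads beyond this end would not be counted, but the annotation used for the counts is not given.

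**Figure D4:**
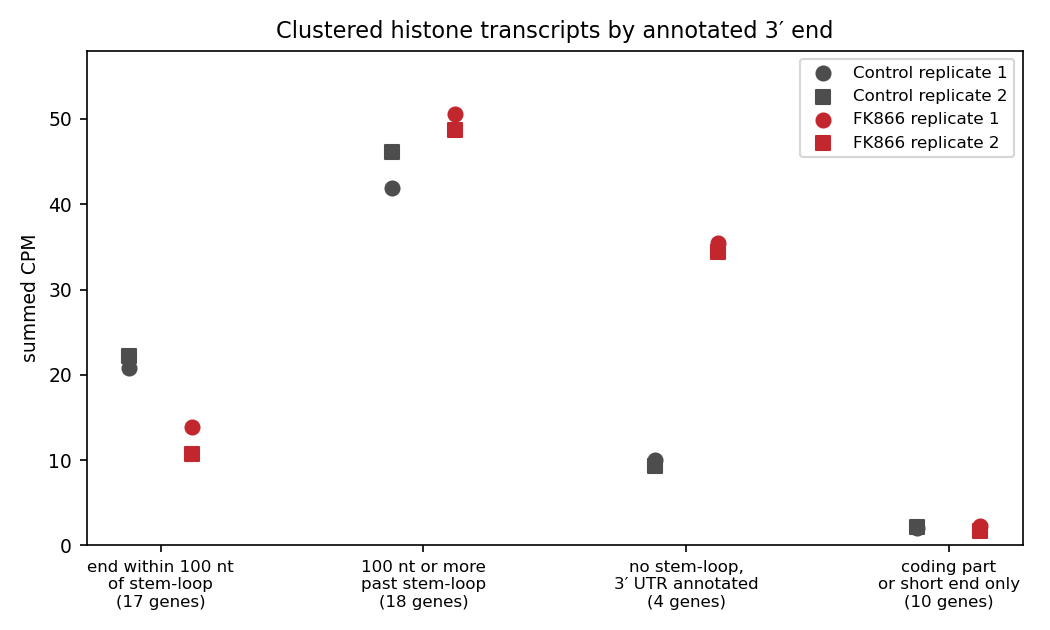
Summed CPM (y axis) of the kept members in each library, by the position of the annotated 3′ end relative to the stem-loop. The sum of the 17 genes that end near the stem-loop is lower with FK866, through Hist1h2bj and Hist1h3a. That of the 4 genes without a stem-loop match in the annotated transcript is higher, through Hist1h2bc alone.

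The head-to-head arrangement was found for 12 H2A-H2B pairs, with 175 to 305 nt between the genes. The partner of Hist1h2bc is Hist1h2ac, 250 nt away, at 0.771 and 0.521 CPM in the Controls and 1.52 and 1.18 CPM with FK866 (log2 1.05 ± 0.62, edgeR adjusted p = 0.316). Both FK866 libraries were higher, without passing the test. The partner of Hist1h2bj is Hist1h2ag, 269 nt away, at 0.303 and 0.276 CPM in the Controls and 0.408 and 0.294 CPM with FK866, with overlapping groups.

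Promoters, from RefSeq on GRCm38.p6 and running from 250 bases before the start to 50 after it, were matched for 62 of the 67 genes in 63 entries. There was no entry for Hist1h2bc, Hist1h3a, Hist1h3f, Hist2h2be and Hist2h4. The promoter of Hist1h2bj is shown because that gene was called, and that of Hist1h2bg because it holds, for an H2B gene that was not called, 3 of the motifs searched. Both are on the plus strand, at chr13:22042948-22043247 and chr13:23571150-23571449, and capitals mark matches on either strand to CCAAT, to the octamer ATTTGCAT and to the TATAAA box.
Hist1h2bj: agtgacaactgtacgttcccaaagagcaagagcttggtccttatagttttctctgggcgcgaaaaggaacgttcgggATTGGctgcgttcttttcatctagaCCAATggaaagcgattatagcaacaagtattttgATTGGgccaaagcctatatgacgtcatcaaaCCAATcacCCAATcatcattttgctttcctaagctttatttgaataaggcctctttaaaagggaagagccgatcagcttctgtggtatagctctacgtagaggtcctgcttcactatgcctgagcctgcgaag
Hist1h2bg: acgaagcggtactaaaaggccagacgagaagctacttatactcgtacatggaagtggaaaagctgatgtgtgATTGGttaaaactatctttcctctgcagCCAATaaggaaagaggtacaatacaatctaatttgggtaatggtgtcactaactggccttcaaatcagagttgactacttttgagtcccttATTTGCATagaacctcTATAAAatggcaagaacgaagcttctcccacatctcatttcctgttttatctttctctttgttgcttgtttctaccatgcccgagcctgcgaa
Hist1h2bj has CCAAT 5 times and neither TATAAA nor ATTTGCAT. On either strand CCAAT was in 85.7% of the 63 histone promoters and in 37.4% of all 32851 promoters, and TATAAA in 55.6% against 13.6%. The octamer ATTTGCAT, known as a site of the factor Oct-1 in H2B promoters, was in 22.2% against 1.74%, with 7 H2A and 7 H2B entries and no other class. Windows of head-to-head genes can overlap, so the same site can count for both genes, as the octamer does for Hist1h2ae and Hist1h2bg. The entries are therefore not independent promoters. AAACACA, an element known from H1 promoters, was in 5 of 6 H1 entries and in 7.18% of all promoters. None of these 4 motifs contains another, and H4 stood apart with CCAAT in 3 of 12 entries. These matches are letters in a window, not measured binding.

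Genes around histone supply are given next, with counts to be read against the 7.89% of all genes called lower and 5.31% called higher. Variant histones are not tied to S phase and are made mostly from ordinary polyadenylated mRNA. Of 11 listed 10 were tested, and 3 fell and none rose (edgeR, median log2 -0.47). H1f0, a linker variant of resting cells, was at 61.6 and 41.4 CPM in the Controls and 28.9 and 23.0 CPM with FK866 (log2 -0.99 ± 0.22, edgeR adjusted p = 0.023, and 0.0563 without FK866 replicate 2). H2afz, which encodes H2A.Z, was at 448 and 517 CPM in the Controls and 353 and 351 CPM with FK866 (log2 -0.46 ± 0.13, edgeR adjusted p = 0.0482), and H3f3a, encoding H3.3, had a log2 fold change of -0.48 (edgeR adjusted p = 0.0497), with 22.8% of its exon bases overlapping another gene. In both genes all FK866 libraries were lower, and the calls lie close to the threshold: of 12 other settings, H2afz lost its call under 8 and H3f3a under 5. Of the 10 variants 0 were called lower without FK866 replicate 2, 2 without Control replicate 2 and 5 without Control replicate 1. Summed variant histones were 29.6 and 31.4 times the summed members in the Controls and 17.6 and 17.4 times with FK866. With Hist1h2bc left out of the members they were 32.8 and 34.3 times against 26.3 and 26.2 times. These are ratios of CPM without correction for exon length, and the members were read only as polyadenylated or internally primed RNA. They thus do not measure the whole variant against the whole clustered histone mRNA.

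Of 28 genes for histone mRNA processing and decay 6 fell and 1 rose (edgeR, median log2 -0.16). Slbp was at 139 and 186 CPM in the Controls and 100.5 and 94.5 CPM with FK866, lower in both FK866 libraries (log2 -0.74 ± 0.16, edgeR adjusted p = 0.0212). Srrt, which encodes the cap-complex partner ARS2, was at 275 and 244 CPM against 134 and 105 CPM (log2 -1.12), and Ncbp2, a cap-binding subunit, at 90.1 and 98.3 CPM against 43.2 and 36.9 CPM (log2 -1.23). Cpsf2, of the cleavage complex, fell by 0.75 on the log2 scale, while Cpsf3, the nuclease that cuts the histone pre-mRNA, had a log2 fold change of -0.06 and was not called. The 1 gene that rose was Tut7, a uridyltransferase that marks histone mRNA for decay (log2 0.50, edgeR adjusted p = 0.0429). It was named after its value was seen, and it lost its call under 5 of the other settings, among them without Control replicate 2, FK866 replicate 1 or FK866 replicate 2. Without FK866 replicate 2 the list had 2 genes called lower, Slbp had an adjusted p of 0.0643 and Cpsf2 of 0.0852.

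Of 28 histone chaperones, which carry histones to DNA, 10 fell and none rose (edgeR, median log2 -0.18). Chaf1b, a subunit of CAF-1, was at 52.5 and 44.1 CPM in the Controls and 11.3 and 17.2 CPM with FK866 (log2 -1.76 ± 0.23, edgeR adjusted p = 0.00347), and Mms22l fell by 1.74 on the log2 scale. Asf1b, an H3-H4 chaperone, was at 44.0 and 50.4 CPM against 20.6 and 22.3 CPM (log2 -1.13), and Nasp, which holds the soluble H3-H4 pool, at 86.5 and 99.4 CPM against 53.9 and 55.4 CPM (log2 -0.77). The most abundant of the list, Npm1, had a log2 fold change of 0.24 and was not called. Without FK866 replicate 2 the number called lower was 6.

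Histone genes are switched on at the start of S phase through cyclin E and CDK2 acting on NPAT. Of 15 genes of that input and of E2F control 6 fell and 1 rose (edgeR, median log2 -0.88). The list also holds Cdkn1a and Cdkn1b, which encode CDK inhibitors, so a fall in its counts is not always less input. Cdkn1a was at 265 and 171 CPM in the Controls and 156 and 95.5 CPM with FK866 (log2 -0.80). Cdkn1b was at 10.1 and 12.5 CPM against 16.9 and 19.3 CPM (log2 0.68). Neither was called in the main setting, but Cdkn1a was called lower under some others. Cdk2 was at 75.9 and 75.6 CPM in the Controls and 34.8 and 36.2 CPM with FK866 (log2 -1.09 ± 0.14, edgeR adjusted p = 0.00337). Ccne1, which encodes cyclin E1, was at 18.03 and 16.3 CPM against 6.97 and 7.59 CPM (log2 -1.24), and E2f1 at 30.6 and 21.5 CPM against 9.46 and 7.47 CPM (log2 -1.63). Pcna, the sliding clamp of replication, was at 203 and 214 CPM against 99.0 and 89.0 CPM (log2 -1.15). In each of these 4 genes both FK866 libraries were lower than both Controls. Npat itself, listed with the processing genes, was at 30.1 and 30.6 CPM in the Controls and 36.9 and 36.4 CPM with FK866 and was not called (log2 0.27, edgeR adjusted p = 0.313). Hinfp, which encodes a factor of H4 promoters, rose from 17.0 and 16.8 CPM to 30.9 and 25.5 CPM (log2 0.74, edgeR adjusted p = 0.0383). It was named after its value was seen, and its adjusted p was 0.351 without FK866 replicate 1 and 0.0551 without Control replicate 1.

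**Figure D5:**
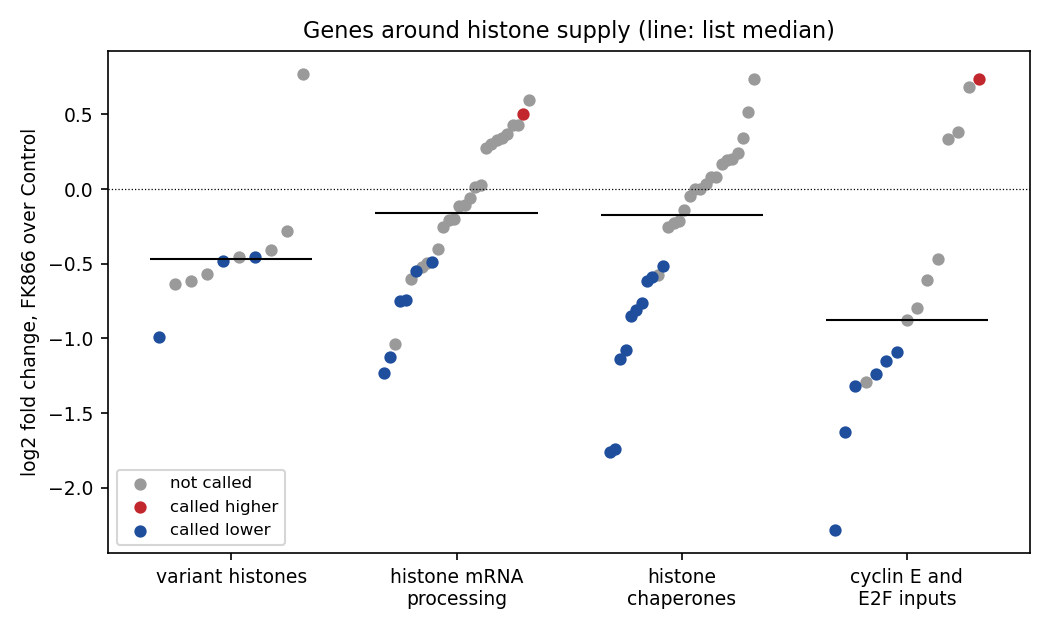
Log2 fold change (y axis, FK866 over Control) of each tested gene of 4 lists: variant histones, histone mRNA processing, histone chaperones, and cyclin E and E2F inputs. Lines are list medians of -0.47, -0.16, -0.18 and -0.88, and genes called lower are in blue.

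As a measure of how much RNA without a poly(A) tail entered the libraries, 20 noncoding RNAs that normally lack one were listed. Of these 4 were tested, none was called by edgeR, and their sum was 10.05 and 11.7 CPM in the Controls and 15.8 and 13.5 CPM with FK866, mostly Rn7sk. Both FK866 libraries were higher in this sum, as they were for Rn7sk alone (8.81 and 9.26 CPM in the Controls, 13.6 and 10.8 CPM with FK866). Of the 4 tested, 3 were higher without overlap, against 28.4% of all genes. The median log2 fold change of the 4 was 1.32, from -0.51 to 3.99, and that of Rn7sk was 0.44 ± 0.24 (SE). Weakly counted RNAs can pass the low-count filter through 1 group alone, so their direction is not independent of their being tested. The share and the median of these 4 are therefore limited as such a measure. The part of capture in the histone values was not tested.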

How the data were processed

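The authors deposited a table of raw counts by Ensembl gene, with 2 Control and 2 FK866 libraries. Per the labels' protocols, RNA was taken with TRIzol and made into libraries with SMART-Seq HT and Nextera XT. Per the submitters' processing notes, cutadapt 1.9, HISAT2 2.2.1 and build mm10 were used. The sources used here do not give the counting program, its annotation or its treatment of multiply mapped reads. Such reads bear most on near-identical histone genes. Names and positions came from GENCODE M21.

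Counts were tested with edgeR 4.0.16 in R 4.3.3 (quasi-likelihood F test, two-sided, TMM, filterByExpr with a minimum count of 10 and total of 15, library sizes recomputed after the filter, treatment as the only term), with Benjamini-Hochberg adjustment over 19194 genes and a threshold of 0.05. The test was also run on simulated counts in which only better-counted genes were changed. That run does not vouch for calls on weakly counted members. Library sizes were first kept from before the filter. They were recomputed after both results had been seen, and the first version is reported as an added alternative. The members and lists were chosen with earlier results of these data known. Full values were given for called members, the 10 with the highest mean CPM and the 2 most abundant of each class. From each other list they were given for up to 6 called genes with the smallest adjusted p and the 3 most abundant, of which the text names some. Since separate cultures or animals are not stated, the p-values cover the spread of these libraries alone, which may be technical. Replicates differed by more than sampling noise (chi-square per degree of freedom of 29.9 for Control and 16.1 for FK866). Alternatives were other scalings, filters, DESeq2 1.42.0, each library left out, a replicate block and a trend over length and GC.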

Additional observations from a re-analysis of the deposited data

How the results depend on the processing

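Hist1h2bc stayed called higher and Hist1h2bj stayed called lower under every setting run. The number of members called lower was 1, and it was 2, with Hist1h3a added, with DESeq2, with no filter, with the stricter filter, with the replicate block and with library sizes from before the filter, an alternative chosen after seeing the data. With 1 library left out, which leaves a group of 1 that is assumed to vary like the other, 1 to 2 members were called higher and 1 to 2 lower. The setting with library sizes from before the filter called 2779 genes in all, 1021 higher and 1758 lower, against 2534 in the main setting. The members' median log2 fold change of 0.03 was 0.10 with library totals, 0.078 with upper quartile, -0.033 with no filter, 0.14 with the stricter filter and 0.36 with the trend removed, and ran from -0.18 to 0.25 with 1 library left out.

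Variant histones called lower were 3, but 5 with DESeq2, 5 with library sizes from before the filter, 1 with the trend removed and 0 to 5 with 1 library left out. Processing genes called lower were 6 (2 to 8 with 1 library left out). Those called higher were 1, but 3 with library totals, upper quartile or DESeq2, 4 with the stricter filter, 0 with no filter or the trend removed and 0 to 2 with 1 library left out. Chaperones called lower were 10 (6 to 11), and those called higher were 0, but 1 with DESeq2, 2 with the stricter filter and 0 to 1 with 1 library left out. Cyclin E and E2F genes called lower were 6 (6 to 9), and those called higher were 1, but 2 with DESeq2 or the stricter filter, 0 with no filter or the trend removed and 0 to 3 with 1 library left out.

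Control and FK866 libraries share replicate numbers, and the deviations of same-numbered libraries correlated at 0.23 over only 2 pairs, so the numbers were not taken as pairs. With the replicate block 5256 genes were called in all, 2 members were lower, 7 variant histones lower and 1 higher, 3 processing genes higher, 2 chaperones higher, and 10 cyclin E and E2F genes lower and 2 higher.

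Uncalled genes near 0 changed sign: Hist1h1c (0.14) and Hist1h4d (0.11) with the trend removed. With 1 library left out, log2 fold changes ran from -1.01 to 0.41 for Hist1h4d, -0.69 to 0.067 for Hist1h4c, -0.29 to 0.29 for Hist1h2ae, -0.072 to 0.51 for Hist1h2ag, -0.22 to 0.41 for Hist1h2bg and -0.32 to 0.14 for Ssrp1. Cpsf3 was 0.032 with the stricter filter. Ssrp1 was 0.0030 with library totals, 0.043 with the stricter filter and 0.013 with the trend removed. The cause of these changes was not tested.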
